A study of Mus musculus with 24 samples.

Results

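The mRNAs of 8 chemokine receptors, *Ccr1*, *Ccr2*, *Ccr3*, *Ccr7*, *Ccrl2*, *Cxcr2*, *Cxcr4* and *Cx3cr1*, were followed in dendritic cells that lack the mRNA-destabilizing protein TTP (tristetraprolin, gene *Zfp36*). The members are the rows of the deposited tables that carry one of these 8 gene names, out of 23394 gene IDs listed. Bone marrow-derived dendritic cells (BMDCs) were grown with GM-CSF from femurs and tibias of WT and TTP-/- mice, all C57BL/6 and 9 to 12 weeks old. Cells of both genotypes were left untreated (0 h) or received 10 ng/ml lipopolysaccharide (LPS, a bacterial ligand of TLR4) for 3, 6 or 9 h, and polyadenylated RNA was sequenced in 3 replicates of each of the 8 groups, 24 libraries in all. The replicates are called biological triplicates without saying which mouse or culture each came from, so that p-values here speak only of the spread among these libraries. The TTP-/- mice lack TTP in all their cells, so the bone marrow from which the cultures were grown also lacked it.

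Chemokine receptors are G protein-coupled receptors with which leukocytes read gradients of chemokines and move through tissue. Maturing dendritic cells are known to give up receptors for inflammatory chemokines and to gain CCR7, which leads them to lymph nodes, while CXCR2 is characteristic of neutrophils and CCR3 of eosinophils. TTP binds AU-rich sequences in the 3′ untranslated region (3′ UTR) of mRNAs and promotes their decay.

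In the absence of TTP, *Ccr1*, *Ccr3*, *Cxcr2* and *Ccrl2* were higher than in WT cells at all 4 times with limma on FPKM. The differences ran from 1.32-fold for *Ccrl2* in untreated cells to 8.55-fold for *Cxcr2* at 6 h. The untreated call of *Ccrl2* was lost without any 1 of 4 libraries and with a replicate block (adjusted p = 0.141). *Cx3cr1*, tested with limma-voom on reads, was called higher at all 4 times. The ratio of its summed level in RPM ran from 4.94-fold in untreated cells to 21.2-fold at 3 h (on 3 WT reads). *Ccr2* and *Cxcr4* were called at some times, and *Cxcr4* was lower in untreated TTP-/- cells but higher at 6 h of LPS. *Ccr7*, the most abundant member in every group, was called with limma on FPKM only at 9 h, when it was 1.29-fold lower. After LPS, *Ccr1*, *Ccr2*, *Cx3cr1*, *Cxcr2* and *Cxcr4* were lower and *Ccrl2* was higher than in untreated cells of both genotypes.

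The libraries held 19966747 to 25553564 recovered reads (median 22560001), and the ranges of the genotypes overlapped. *Zfp36* itself read 87.4 to 102 FPKM in untreated TTP-/- cells and 201 to 213 FPKM in untreated WT cells (log2 difference -1.11, adjusted p = 0.00139 with limma). Reads of the gene were thus still found in the knockout. After LPS its log2 difference was smaller, at -0.29, -0.50 and -0.46 at 3, 6 and 9 h (adjusted p = 0.0357, 0.0635 and 0.00887). Which part of the transcript these reads cover was not tested. FPKM are fragments or reads per kilobase scaled by library size. Here the values of 78.1% of genes matched whole reads per kilobase of the annotated gene span including introns, as inferred from the values. The dendritic cell markers were present in all groups (8 of 8 detected, summed level 637 to 1520 FPKM over all libraries), and B and T cell markers stayed at or below 0.325 FPKM in sum. However, markers of other myeloid cells differed with genotype: in untreated cells 9 of 10 tested neutrophil markers, 5 of 5 eosinophil, 5 of 5 monocyte, 4 of 5 macrophage and 4 of 5 basophil and mast cell markers were higher in TTP-/- cells, and 5 of 8 dendritic cell markers were lower, where 13.3% of all genes tested were called higher and 12.1% lower. In these bulk samples, fewer cells of a type and less RNA per cell cannot be told apart. In their marker sums, 3 libraries stood apart from their groups: WT replicate 1 at 3 h (monocyte markers 142 FPKM in sum, against 53.4 and 36.4 in the other libraries), untreated TTP-/- replicate 3 (mature dendritic cell markers 4225 FPKM in sum, against 2136 and 2769) and WT replicate 1 at 6 h (the same markers 13417 FPKM in sum, against 21023 and 18619).

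The 3′ UTRs of the members differed in how many AU-rich letters they hold, and the sites are shown because TTP acts through such elements. On GRCm38 with GENCODE vM21, the letters ATTTA and the longer TATTTAT and TTATTTATT were searched on the transcript strand of the principal transcript, so a longer match also holds an ATTTA. *Ccr2*, with a 3′ UTR of 2701 bases, held 8 ATTTA and 1 TATTTAT, and *Ccrl2*, with 860 bases, held 2 ATTTA and 1 TATTTAT. The other members held no TATTTAT. *Ccr3* and *Cxcr2* held 2 ATTTA each, *Ccr1*, *Cxcr4* and *Cx3cr1* 1 each, and *Ccr7* none in its 762 bases. No member held TTATTTATT. Among genes with a 3′ UTR of 0.8 to 1.25 times the same length, TATTTAT was found in 50.8% for the length of *Ccr2* and in 21.2% for that of *Ccrl2*. For the members without TATTTAT, 17.5% to 49.4% of such genes held it. ATTTA was found in 65.2% for the length of *Ccr7*. For the members with ATTTA, the share ran from 59.7% (*Cxcr4*) and 69.0% (*Ccrl2*) to 95.2% (*Ccr2*), so most genes of like length held it too. TTATTTATT was found in 4.01% to 13.1% over the lengths of the 8 members. Selected windows of 27 bases are given 5′ to 3′ with the motif in capitals, the TATTTAT windows first.
Ccr2 (chr9:124107716-124107742, plus strand): ccttacatgaTATTTATaaaattattg
Ccrl2 (chr9:111055187-111055213, minus strand): acggttaagtTATTTATaaaggtgaat
Ccr1 (chr9:123963123-123963149, minus strand): tgtggttattaATTTAaaaacaaagcc
Ccr3 (chr9:124030023-124030049, plus strand): gtttaaaaaatATTTAaactacttttg
Cxcr2 (chr1:74159855-74159881, plus strand): agcagttttccATTTAaaaaaaaatta
Cxcr2 (chr1:74160462-74160488, plus strand): ggagagtgcttATTTAacatttctaag
Cxcr4 (chr1:128588661-128588687, minus strand): ggtttgacttaATTTAtataaatactt
Cx3cr1 (chr9:120051117-120051143, minus strand): ttttttgaaaaATTTAtgttcaatgtg
A match is a description of these letters and not a binding site.

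Genotype was compared at each time with limma on log2(FPKM + 0.1) over the 6 libraries of that time, with p-values adjusted over all genes tested (Benjamini-Hochberg, threshold 0.05). A gene entered the test when its average FPKM across the 24 libraries reached 0.1 and the table of that time listed it. Of the 8 members, 7 passed this filter and *Cx3cr1* did not. In untreated cells 5 of the 7 were higher and 1 was lower in TTP-/- cells, where 25.4% of the 13416 genes tested were called (13.3% higher, 12.1% lower). At 3 h, 4 were higher and none was lower (21.3% of all genes called, 10.6% higher and 10.7% lower). At 6 h, 6 were higher and none was lower (14.9% called, 9.93% higher and 4.98% lower). Both counts of members at 6 h held with the replicate block, where 12.0% of all genes were called higher and 8.96% lower. They also held without the outlying WT replicate 1. When each of the 6 libraries was left out in turn, the number of members called at 6 h ran from 4 to 6. In these fits 6.55% to 11.1% of all genes were called higher and 1.64% to 8.25% lower. At 9 h, 5 were higher and 1 was lower (30.3% called, 16.3% higher and 13.9% lower). With the replicate block in limma, *Ccrl2* (adjusted p = 0.141) and *Cxcr4* (adjusted p = 0.0520) lost their calls at 0 h and *Ccr7* (adjusted p = 0.0993) at 9 h. The block called 7.1% of all genes higher and 5.0% lower at 0 h, and 13.7% and 10.7% at 9 h. The median log2 difference of the 7 members was 1.05, 1.01, 1.08 and 1.48 at 0, 3, 6 and 9 h, whereas that of all genes tested lay between -0.04 and -0.02. The 3 libraries of each genotype did not overlap for 7, 6, 6 and 6 of the 7 members, against 42.7%, 41.2%, 35.3% and 46.7% of all genes tested.

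**Figure D1:**
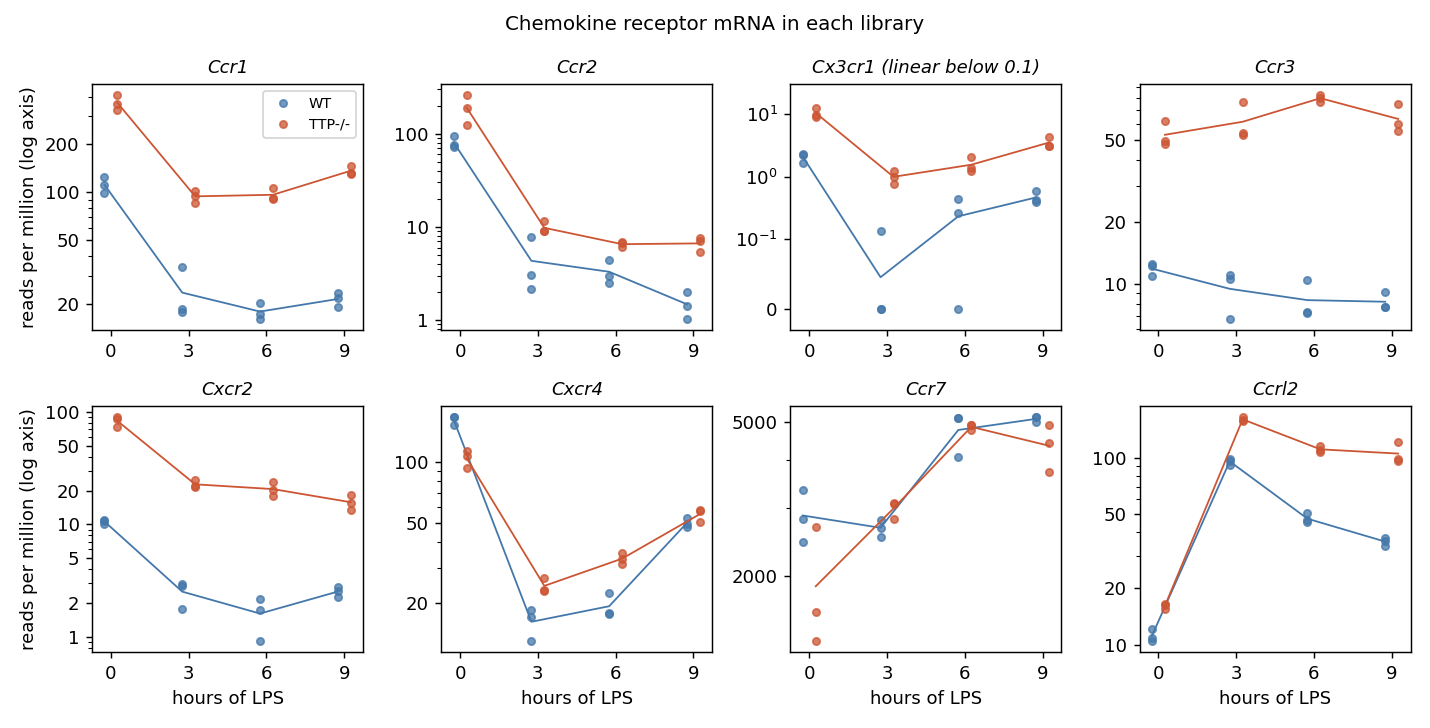
Reads per 1000000 library reads (RPM) of the 8 receptor mRNAs (log axes, linear below 0.1 for *Cx3cr1*) against hours of LPS, with 1 point per library and lines through the means of 3 WT (blue) and 3 TTP-/- (red) libraries. *Ccr1*, *Ccr3* and *Cxcr2* lay higher in every TTP-/- library than in every WT library of the same time, and *Ccr7* lay between 1362 and 5159 RPM in all libraries.

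*Cxcr2*, the receptor for CXCL1 and CXCL2 on neutrophils, showed the largest genotype difference in untreated cells among the 7 members tested. *Cxcr2* read 1.56, 1.53 and 1.46 FPKM in untreated WT libraries, whereas untreated TTP-/- libraries read 9.58, 11.5 and 11.6 FPKM. After 3 h of LPS, WT cells were at 0.256, 0.411 and 0.426 FPKM and TTP-/- cells at 2.85, 2.88 and 3.19 FPKM. The genotypes were thus far apart both before and after the fall with LPS. For *Cxcr2* at 6 h, WT libraries read 0.304, 0.137 and 0.257 FPKM, whereas 2.69, 3.10 and 2.30 FPKM were found in TTP-/- libraries. WT levels of *Cxcr2* at 9 h were 0.390, 0.342 and 0.355 FPKM, against 2.06, 1.80 and 2.33 FPKM without TTP. No TTP-/- library overlapped a WT library at any time. On the log2(FPKM + 0.1) scale, which understates the difference of low values, *Cxcr2* was 6.77-fold higher in untreated TTP-/- cells (log2 2.76 ± 0.11 SE, adjusted p = 0.000343). The difference was 6.72-fold at 3 h, 8.55-fold at 6 h and 4.66-fold at 9 h (adjusted p = 0.000517, 0.000499 and 0.000118).

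*Ccr3*, the eotaxin receptor of eosinophils, was several-fold higher in TTP-/- cells at each time. *Ccr3* read 1.33, 1.14 and 1.32 FPKM in untreated WT libraries, whereas untreated TTP-/- libraries read 4.86, 6.13 and 4.59 FPKM. At 3 h it stood at 0.722, 1.14 and 1.19 FPKM in WT and at 5.33, 5.20 and 7.43 FPKM in TTP-/- cells. All TTP-/- libraries lay well above all WT libraries at both times. For *Ccr3* at 6 h, WT libraries read 1.09, 0.808 and 0.792 FPKM, whereas 7.84, 8.11 and 7.40 FPKM were found in TTP-/- libraries. WT levels of *Ccr3* at 9 h were 0.808, 0.867 and 0.944 FPKM, against 5.91, 5.53 and 7.10 FPKM without TTP. The genotypes did not overlap at any time. *Ccr3* was 3.86-fold, 5.49-fold, 7.98-fold and 6.43-fold higher in TTP-/- cells at 0, 3, 6 and 9 h (adjusted p = 0.000598, 0.00160, 0.000181 and 9.76e-05).

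The markers of the cells that carry these receptors moved with genotype too. The summed level of 11 neutrophil markers ranged from 179 to 267 FPKM in untreated WT and from 1112 to 1883 FPKM in untreated TTP-/- libraries, with no marker at 0 in a group, and the median log2 difference of the 10 tested was 2.52, 2.97, 2.87 and 2.60 at 0, 3, 6 and 9 h. *S100a9*, a calcium-binding protein abundant in neutrophils, was higher by 2.69, 3.58, 3.48 and 2.83 on the log2 scale. The summed level of 6 eosinophil markers ranged from 30.5 to 37.9 FPKM in untreated WT and from 174 to 220 FPKM in untreated TTP-/- libraries, again with none at 0. The median log2 difference of the 5 eosinophil markers tested was 2.38, 2.95, 3.44 and 2.73, and *Prg2*, the eosinophil major basic protein, was higher by 3.01, 3.34, 3.86 and 3.19. Thus *Cxcr2* and *Ccr3* differed between genotypes in the same direction as these neutrophil and eosinophil markers. The part of such cells in the differences of the receptors was not tested.

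**Figure D2:**
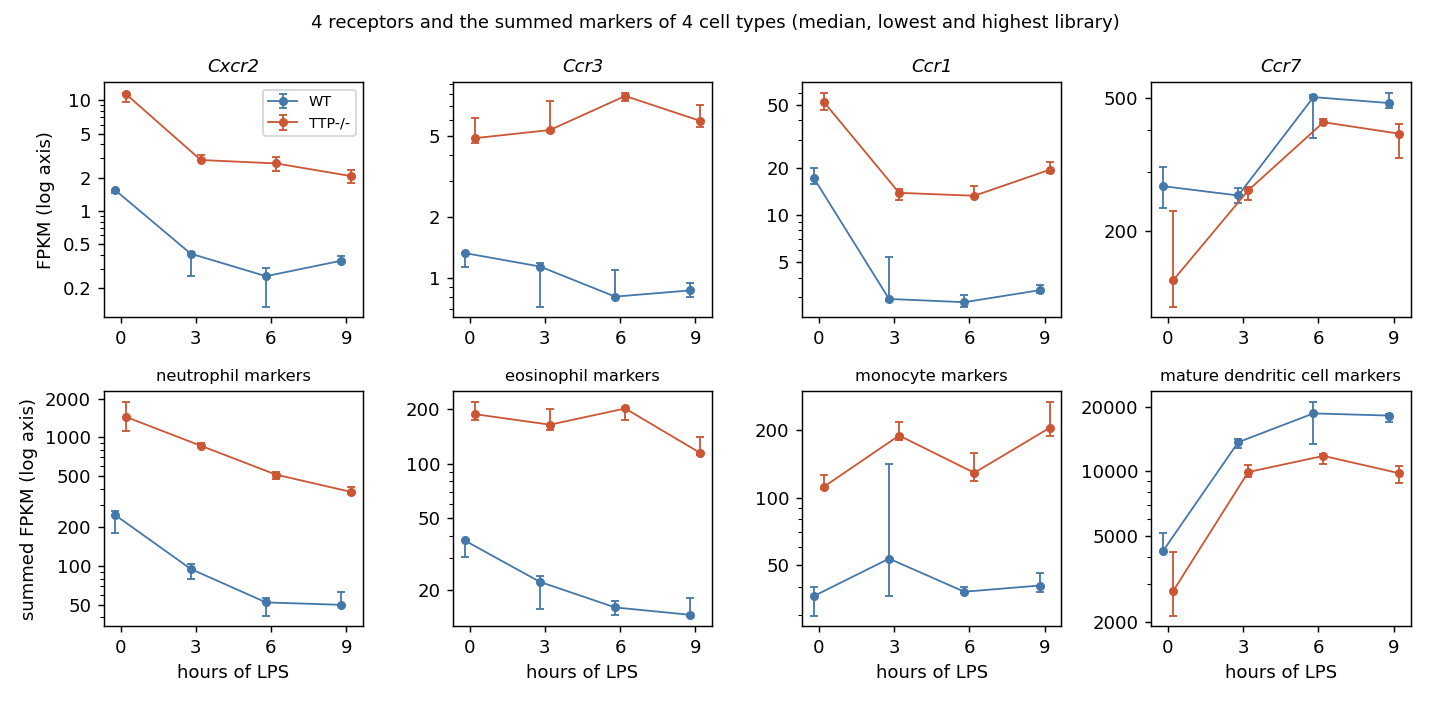
Upper row: FPKM of *Cxcr2*, *Ccr3*, *Ccr1* and *Ccr7* against hours of LPS. Lower row: summed FPKM of the neutrophil, eosinophil, monocyte and mature dendritic cell markers. Points are medians and bars the lowest and highest of 3 libraries, WT in blue and TTP-/- in red, on log axes. Genotypes are compared within a time, since FPKM of different times were normalized separately. Neutrophil, eosinophil and monocyte markers lay above WT in TTP-/- cells together with the receptor above them. The highest WT monocyte sum, 142 in replicate 1 at 3 h, lay below the lowest TTP-/- sum of that time, 180.

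*Ccr1*, a receptor for CCL3 and CCL5 on monocytes and other myeloid cells, was higher in TTP-/- cells at each time. *Ccr1* read 19.8, 17.2 and 15.8 FPKM in untreated WT libraries, whereas untreated TTP-/- libraries read 59.8, 52.4 and 46.8 FPKM. At 3 h WT cells were at 5.39, 2.84 and 2.93 FPKM, with replicate 1 well above the other libraries, and TTP-/- cells at 13.9, 12.5 and 14.6 FPKM. Even this high WT library stayed below all TTP-/- libraries. For *Ccr1* at 6 h, WT libraries read 3.12, 2.62 and 2.79 FPKM, whereas 13.3, 15.3 and 13.2 FPKM were found in TTP-/- libraries. WT levels of *Ccr1* at 9 h were 3.33, 3.18 and 3.61 FPKM, against 19.4, 21.7 and 18.4 FPKM without TTP. The genotypes did not overlap at any time. The log2 difference was 1.58, 1.91, 2.25 and 2.52 at 0, 3, 6 and 9 h, or 3.00-fold, 3.75-fold, 4.77-fold and 5.73-fold (adjusted p = 0.00107, 0.00525, 0.000227 and 6.03e-05).

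*Ccr2*, the receptor for CCL2 that marks inflammatory monocytes, was higher in TTP-/- cells at 0, 6 and 9 h. *Ccr2* read 8.47, 6.34 and 6.78 FPKM in untreated WT libraries, whereas untreated TTP-/- libraries read 21.5, 15.7 and 9.88 FPKM, the last in replicate 3. *Ccr2* at 3 h stood at 0.691, 0.278 and 0.196 FPKM in WT libraries, while TTP-/- libraries read 0.941, 0.734 and 0.723 FPKM. WT replicate 1 came close to the TTP-/- libraries without overlapping them. For *Ccr2* at 6 h, WT libraries read 0.384, 0.232 and 0.273 FPKM, whereas 0.546, 0.493 and 0.557 FPKM were found in TTP-/- libraries. WT levels of *Ccr2* at 9 h were 0.124, 0.0965 and 0.173 FPKM, against 0.622, 0.584 and 0.432 FPKM without TTP. The genotypes did not overlap at any time, but the calls of *Ccr2* at 0 and 6 h were narrow. The log2 difference was 1.05 at 0 h (adjusted p = 0.0411), 1.01 at 3 h (adjusted p = 0.109), 0.69 at 6 h (adjusted p = 0.0353) and 1.48 at 9 h (adjusted p = 0.00161). Leaving out WT replicate 1 at 3 h, the difference at 3 h was 1.42 (adjusted p = 0.00475), and leaving out any 1 of 5 of the 6 libraries ended the call at 0 h (adjusted p up to 0.126, TTP-/- replicate 3 being the exception) and at 6 h (adjusted p up to 0.120, WT replicate 1 being the exception).

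*Cx3cr1*, the receptor for CX3CL1 on patrolling monocytes and some dendritic cells, had the lowest level of the members. Its annotated gene span covers 168264 bases on chromosome 9, and no library exceeded 0.0711 FPKM, so that reads are given instead. These reads were recovered with a fitted length, as were those of *Ccr1*, *Ccr3* and *Ccrl2*. Untreated WT libraries held 57, 56 and 38 reads and untreated TTP-/- libraries 303, 210 and 232. At 3 h WT libraries held 3, 0 and 0 reads and TTP-/- libraries 22, 24 and 17. The genotypes were apart in every library at these times. At 6 h the counts were 10, 0 and 6 in WT and 29, 29 and 42 in TTP-/- cells. At 9 h they were 9, 13 and 9 in WT and 68, 86 and 72 in TTP-/- cells. No WT library reached a TTP-/- library of the same time. In RPM, the summed level of *Cx3cr1* was 4.94-fold higher in untreated TTP-/- cells (95% exact interval 4.14 to 5.92), 21.2-fold at 3 h (6.93 to 106, on 3 WT reads), 6.51-fold at 6 h (3.82 to 11.8) and 7.39-fold at 9 h (5.06 to 11.1), intervals that cover counting error only. With limma-voom on the recovered reads, where all 8 members were tested, *Cx3cr1* was called at each time (adjusted p = 0.000125, 0.00165, 0.0105 and 3.03e-05), and 34.0%, 30.3%, 23.0% and 38.0% of all genes were called. The exons of *Cx3cr1* overlap those of the antisense gene *Gm33858*, and whether counting used strand is not given in the sources used here.

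Markers of monocytes and macrophages were called higher in TTP-/- cells for 5, 2, 5 and 5 of 5 monocyte and 4, 2, 4 and 4 of 5 macrophage markers at 0, 3, 6 and 9 h, where 13.3%, 10.6%, 9.93% and 16.3% of all genes were. Without WT replicate 1 at 3 h, 4 of 5 in each list were called at that time, where 15.5% of all genes were. The summed level of 6 monocyte markers ranged from 29.8 to 39.9 FPKM in untreated WT and from 109 to 126 FPKM in untreated TTP-/- libraries, and that of 6 macrophage markers from 9.60 to 14.6 and from 20.4 to 26.0 FPKM. None of either list was at 0 in any group. *Csf1r*, the M-CSF receptor, differed by 1.53, 1.54, 1.69 and 2.61 on the log2 scale in the order of the times, and only the value at 3 h did not pass the test. At 9 h the median difference of the 5 monocyte markers tested was 2.29 and that of the 5 macrophage markers 2.26. In WT replicate 1 at 3 h, where *Ccr1* and *Ccr2* were high, the macrophage sum was 13.8 FPKM, against 5.75 and 4.71 FPKM in the other WT libraries. The part of such cells in the differences of *Ccr1*, *Ccr2* and *Cx3cr1* was not tested.

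*Ccrl2*, an atypical receptor that binds chemerin and does not signal to G proteins, was higher in TTP-/- cells at each time. *Ccrl2* read 4.47, 4.51 and 5.24 FPKM in untreated WT libraries, whereas untreated TTP-/- libraries read 6.11, 6.52 and 6.28 FPKM. *Ccrl2* at 3 h stood at 41.3, 39.7 and 42.2 FPKM in WT libraries, while TTP-/- libraries read 65.1, 61.8 and 61.4 FPKM. The peak after LPS was therefore also higher without TTP. For *Ccrl2* at 6 h, WT libraries read 20.9, 20.4 and 19.7 FPKM, whereas 43.1, 45.1 and 41.6 FPKM were found in TTP-/- libraries. WT levels of *Ccrl2* at 9 h were 14.9, 15.2 and 15.4 FPKM, against 37.8, 48.5 and 37.6 FPKM without TTP. No libraries overlapped between genotypes at any time. The difference was 1.32-fold at 0 h and 1.53-fold, 2.12-fold and 2.69-fold at 3, 6 and 9 h (adjusted p = 0.0309, 0.00240, 0.000780 and 0.000418). In untreated cells the difference no longer passed without any of 4 single libraries (WT replicates 1 and 2, TTP-/- replicates 1 and 2, adjusted p up to 0.126).

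*Cxcr4*, the receptor for CXCL12 that holds cells in bone marrow, turned from lower to higher in TTP-/- cells. *Cxcr4* read 42.0, 37.6 and 42.8 FPKM in untreated WT libraries, whereas untreated TTP-/- libraries read 21.8, 26.5 and 24.3 FPKM. *Cxcr4* at 3 h stood at 3.31, 4.39 and 4.70 FPKM in WT libraries, while TTP-/- libraries read 5.46, 5.38 and 6.12 FPKM. The genotypes did not overlap at either time but lay in opposite order. For *Cxcr4* at 6 h, WT libraries read 5.55, 4.69 and 4.62 FPKM, whereas 7.69, 8.22 and 7.16 FPKM were found in TTP-/- libraries. WT levels of *Cxcr4* at 9 h were 13.1, 12.7 and 12.2 FPKM, against 11.9, 13.6 and 12.9 FPKM without TTP, which overlapped. *Cxcr4* was 1.69-fold lower in untreated TTP-/- cells (log2 -0.75 ± 0.12 SE, adjusted p = 0.00560) and 1.55-fold higher at 6 h (log2 0.63 ± 0.11 SE, adjusted p = 0.0149). At 3 h the difference of 0.46 did not pass the test (adjusted p = 0.0743), nor did that of 0.02 at 9 h (adjusted p = 0.896). At 6 h the difference no longer passed without any of 4 single libraries (WT replicates 2 and 3, TTP-/- replicates 1 and 2, adjusted p up to 0.0769), and without WT replicate 1 at 3 h the difference at 3 h was 0.31 (adjusted p = 0.0450).

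*Ccr7*, the receptor for CCL19 and CCL21 of mature dendritic cells, was the only one of the 7 members tested with limma on FPKM that had no call between genotypes before 9 h. *Ccr7* read 235, 311 and 273 FPKM in untreated WT libraries, whereas untreated TTP-/- libraries read 120, 143 and 230 FPKM. Replicate 3 of the TTP-/- cells came close to the lowest WT library, and the other TTP-/- libraries lay far below it. *Ccr7* at 3 h stood at 242, 270 and 256 FPKM in WT libraries, while TTP-/- libraries read 248, 272 and 265 FPKM. For *Ccr7* at 6 h, WT libraries read 379, 507 and 501 FPKM, whereas 418, 430 and 422 FPKM were found in TTP-/- libraries. The genotypes overlapped at 3 and 6 h. WT levels of *Ccr7* at 9 h were 482, 516 and 464 FPKM, against 391, 331 and 417 FPKM in TTP-/- cells, and did not overlap. The log2 difference of *Ccr7* was -0.78 at 0 h (95% interval -1.40 to -0.16, adjusted p = 0.0743), 0.03 at 3 h (-0.16 to 0.22), -0.11 at 6 h (-0.46 to 0.23) and -0.37 at 9 h (-0.63 to -0.10, adjusted p = 0.0470). With limma-voom on reads, the test used for *Cx3cr1*, *Ccr7* was called in untreated cells (-0.79, adjusted p = 0.0290). Without TTP-/- replicate 3 the difference in untreated cells was -1.05 (adjusted p = 0.00825), without WT replicate 1 that at 6 h was -0.25 (adjusted p = 0.0694), and at 9 h the difference no longer passed without any single library (adjusted p from 0.0508 to 0.118). The summed level of 6 mature dendritic cell markers ranged from 4262 to 5152 FPKM in untreated WT and from 2136 to 4225 FPKM in untreated TTP-/- libraries. Of the 6 markers, 2, 2, 0 and 4 were lower in TTP-/- cells at 0, 3, 6 and 9 h, where 12.1%, 10.7%, 4.98% and 13.9% of all genes were, and 4 were lower at 6 h without WT replicate 1 (8.25% of all genes). At 9 h *Ccl22*, a chemokine of mature dendritic cells, was lower by 0.90 on the log2 scale, whereas *Cd40*, a co-stimulatory receptor, was higher by 0.43, the only one of the 6 called higher at any of these times. None of these markers was at 0 in a group, and their part in the values of *Ccr7* was not tested.

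**Figure D3:**
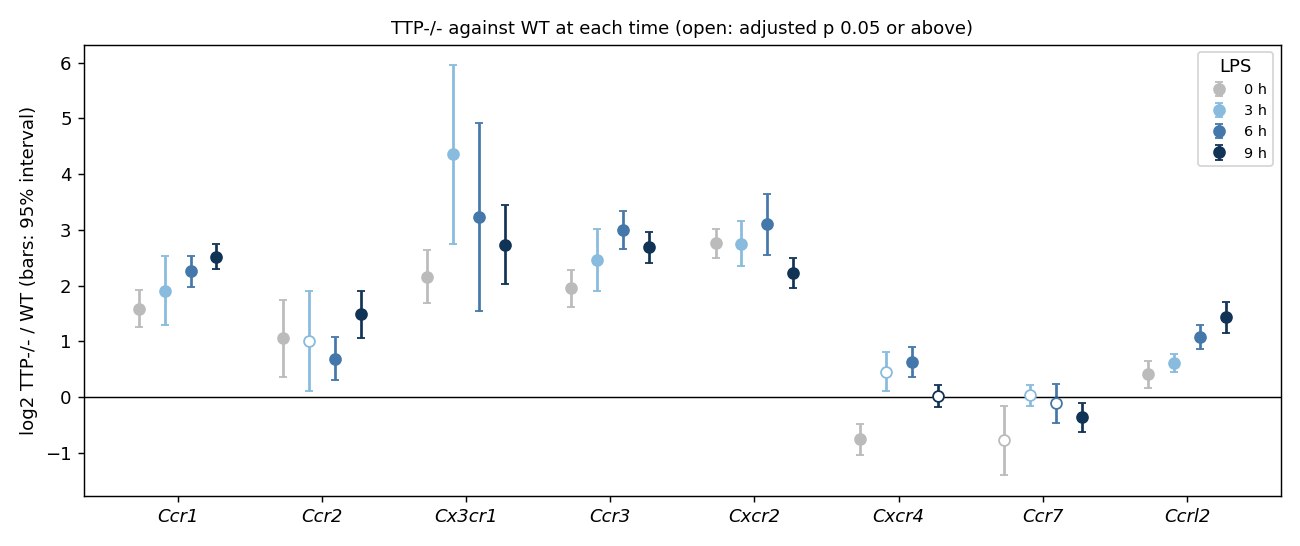
Log2 ratio of TTP-/- to WT for each receptor at 0, 3, 6 and 9 h (grey to dark blue), with 95% intervals from limma on log2(FPKM + 0.1), or from limma-voom on reads for *Cx3cr1*. Filled points passed an adjusted p of 0.05. *Ccr1* and *Ccrl2* lie higher at each later time, *Cxcr4* crosses from -0.75 to 0.63, and *Ccr7* lies between -0.78 and 0.03.

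Whether the genotype difference itself changed with LPS was tested as its value at each later time minus that at 0 h, in 1 limma fit of the 24 libraries. The comparisons share the untreated samples. At 3 h, 1 of 7 members was called, *Cxcr4*, whose difference had moved up by 1.21 (adjusted p = 0.000161), where 2.71% of all genes were called upward. At 6 h, 3 of 7 were called upward against 5.07% of all genes: *Cxcr4* by 1.38 (adjusted p = 2.60e-05), *Ccr3* by 1.05 (adjusted p = 0.00935) and *Ccrl2* by 0.68 (adjusted p = 0.00124). At 9 h, 3 of 7 were called upward against 5.38% of all genes: *Ccrl2* by 1.02 (adjusted p = 3.11e-05), *Ccr1* by 0.94 (adjusted p = 0.0195) and *Cxcr4* by 0.77 (adjusted p = 0.00432). The change of *Ccr3* at 6 h no longer passed without WT replicate 3 or TTP-/- replicate 1 (adjusted p = 0.0678 and 0.0905), and that of *Ccr1* at 9 h without WT replicate 2 or any TTP-/- replicate (adjusted p from 0.0713 to 0.121). No member was called downward, where 2.20%, 3.31% and 4.03% of all genes were at 3, 6 and 9 h. The difference of *Cxcr2* moved by -0.01, 0.34 and -0.54 (95% interval at 9 h -1.05 to -0.03) and did not pass the test. *Ccr7* moved by 0.81 at 3 h (adjusted p = 0.0679), and by 1.07 (adjusted p = 0.00706) when TTP-/- replicate 3 was left out at all times.

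The response to LPS was compared in RPM, since the FPKM of each time were normalized separately, with limma on log2(RPM + 0.1) in 1 fit of the 24 libraries. On this scale the median gene fell by 0.39 to 0.54 on the log2 scale after LPS, and on reads scaled by trimmed means of M values (TMM) it moved by -0.04 to 0.03. Member values are given as changes in RPM, to be read against this shift of the median gene. In WT cells at 3, 6 and 9 h, 1, 2 and 2 of the 7 members tested were higher and 4, 5 and 5 lower, where 12.1%, 11.4% and 10.2% of all genes were called higher and 50.3%, 56.0% and 54.6% lower. With TMM scaling the split of all genes in WT cells came to 24.1%, 25.7% and 26.5% higher and to 25.5%, 26.0% and 25.8% lower. In TTP-/- cells 2, 3 and 2 members were higher and 4, 4 and 4 lower, where 13.7%, 14.3% and 13.3% of all genes were called higher and 47.9%, 52.1% and 51.9% lower. With TMM scaling the split of all genes in TTP-/- cells was 26.2% and 24.2%, 29.2% and 26.5%, and 30.1% and 25.8%.

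*Ccr2* fell the most of the 7 members. In RPM, untreated WT libraries held 94.3, 72.7 and 74.7 and WT libraries at 9 h 1.41, 1.03 and 1.99. The TTP-/- libraries went from 261, 188 and 123 to 7.52, 6.99 and 5.42 at 9 h. The times did not overlap in either genotype. The log2 change of *Ccr2* in WT cells was -4.38, -4.60 and -5.71 at 3, 6 and 9 h, and in TTP-/- cells -4.22, -4.79 and -4.77 (adjusted p at most 4.59e-10). *Ccr1* fell 4.95-fold, 6.24-fold and 5.20-fold in WT cells and 3.86-fold, 3.77-fold and 2.66-fold in TTP-/- cells (adjusted p at most 2.40e-07). The mean of *Ccr1* was 94.4 RPM at 3 h and 137 RPM at 9 h in TTP-/- cells and 23.4 and 21.4 RPM in WT cells, a description of the later times without a test.

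*Cx3cr1* fell and then partly returned in both genotypes. The 151 reads summed over the untreated WT libraries became 3, 16 and 31 reads after 3, 6 and 9 h, and in TTP-/- cells 745 reads became 63, 100 and 226. In RPM, untreated WT cells held 44.9-fold more than at 3 h (95% exact interval 15.1 to 220, on 3 reads, for counting error only) and 4.47-fold more than at 9 h (3.02 to 6.81). For TTP-/- cells these ratios were 10.5 (8.08 to 13.8) and 2.99 (2.57 to 3.48). With limma-voom the falls of *Cx3cr1* passed the test at each time in both genotypes (adjusted p at most 0.00937), where 29.4%, 30.5% and 30.5% of all genes were called lower in WT cells and 28.4%, 31.2% and 30.5% in TTP-/- cells. The change of its genotype difference did not pass (adjusted p = 0.145, 0.471 and 0.631), and voom called 4.93%, 8.33% and 9.46% of all genes for this change.

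*Cxcr2* was lower at all later times in both genotypes. Its log2 change was -2.06, -2.72 and -2.03 in WT and -1.86, -2.01 and -2.39 in TTP-/- cells (adjusted p at most 2.14e-07). Of 10 neutrophil markers tested in RPM, 6, 7 and 8 were lower in WT cells and 0, 0 and 1 higher (median -0.63, -1.76 and -1.74). In TTP-/- cells 4, 6 and 9 were lower and 1, 1 and 1 higher (median -0.10, -0.90 and -1.57). Of all genes, 50.3%, 56.0% and 54.6% were lower in WT and 47.9%, 52.1% and 51.9% in TTP-/- cells. The part of such cells in the fall of *Cxcr2* was not tested. *Cxcr4* had its lowest mean at 3 h in both genotypes. It went from 165, 152 and 166 RPM in untreated WT libraries to 13.02, 17.1 and 18.4 RPM at 3 h and 52.7, 47.5 and 49.3 RPM at 9 h. In TTP-/- libraries it went from 93.3, 112 and 107 RPM to 23.4, 23.0 and 26.7 RPM at 3 h and 50.5, 57.5 and 57.2 RPM at 9 h. Each WT library lay above the TTP-/- libraries before LPS and below them at 3 h, and the genotypes overlapped at 9 h. The log2 change of *Cxcr4* was -3.32, -3.06 and -1.69 in WT and -2.09, -1.64 and -0.91 in TTP-/- cells (adjusted p at most 8.17e-07).

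*Ccrl2* rose with LPS and was highest at 3 h. It went from 10.4, 10.9 and 12.1 RPM in untreated WT libraries to 96.6, 92.1 and 98.5 RPM at 3 h and back to 35.8, 33.9 and 37.1 RPM at 9 h. In TTP-/- libraries it went from 15.5, 16.5 and 16.4 RPM to 166, 157 and 159 RPM at 3 h and 95.7, 122 and 98.9 RPM at 9 h. The libraries of each of these times were apart within both genotypes. *Ccrl2* was 8.54-fold, 4.21-fold and 3.18-fold above untreated WT cells at 3, 6 and 9 h, and 9.92-fold, 6.85-fold and 6.47-fold above untreated TTP-/- cells (adjusted p at most 7.92e-13). From 3 h to 9 h its mean declined 2.69-fold in WT and 1.53-fold in TTP-/- cells, a description without a test of its own.

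*Ccr7* rose later. It went from 2455, 3341 and 2817 RPM in untreated WT libraries to 2533, 2803 and 2670 RPM at 3 h and 5159, 5140 and 4996 RPM at 9 h. In TTP-/- libraries it went from 1362, 1615 and 2681 RPM to 2817, 3096 and 3069 RPM at 3 h and 4423, 3709 and 4905 RPM at 9 h. In RPM, untreated TTP-/- replicate 3 lay within the WT range. The log2 change of *Ccr7* in WT cells was -0.09 at 3 h (adjusted p = 0.661), a value of 0.33 with TMM scaling (adjusted p = 0.120), then 0.74 and 0.84 at 6 and 9 h (adjusted p = 0.000903 and 0.000256). In TTP-/- cells it was 0.73, 1.43 and 1.26 (adjusted p = 0.00116, 2.88e-07 and 1.98e-06).

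*Ccr3* depended on the scale. It held 12.4, 10.9 and 12.2 RPM in untreated WT libraries and 7.73, 7.72 and 9.07 RPM at 9 h. In TTP-/- libraries it held 49.4, 61.8 and 47.8 RPM untreated and 79.8, 82.9 and 76.8 RPM at 6 h. The TTP-/- libraries at 6 h lay above all untreated ones, and the WT libraries at 9 h below. In RPM the log2 change of *Ccr3* in WT cells was -0.35, -0.52 and -0.53 at 3, 6 and 9 h (adjusted p = 0.0943, 0.0143 and 0.0133), but with TMM scaling it was 0.07, 0.03 and 0.01 (adjusted p from 0.763 to 0.975), so that the direction in WT cells flipped and no call was left. In TTP-/- cells the change was 0.20, 0.60 and 0.25 in RPM (adjusted p = 0.356, 0.00574 and 0.227) and 0.63, 1.14 and 0.79 with TMM scaling (adjusted p = 0.00482, 8.17e-06 and 0.000583).

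**Figure D4:**
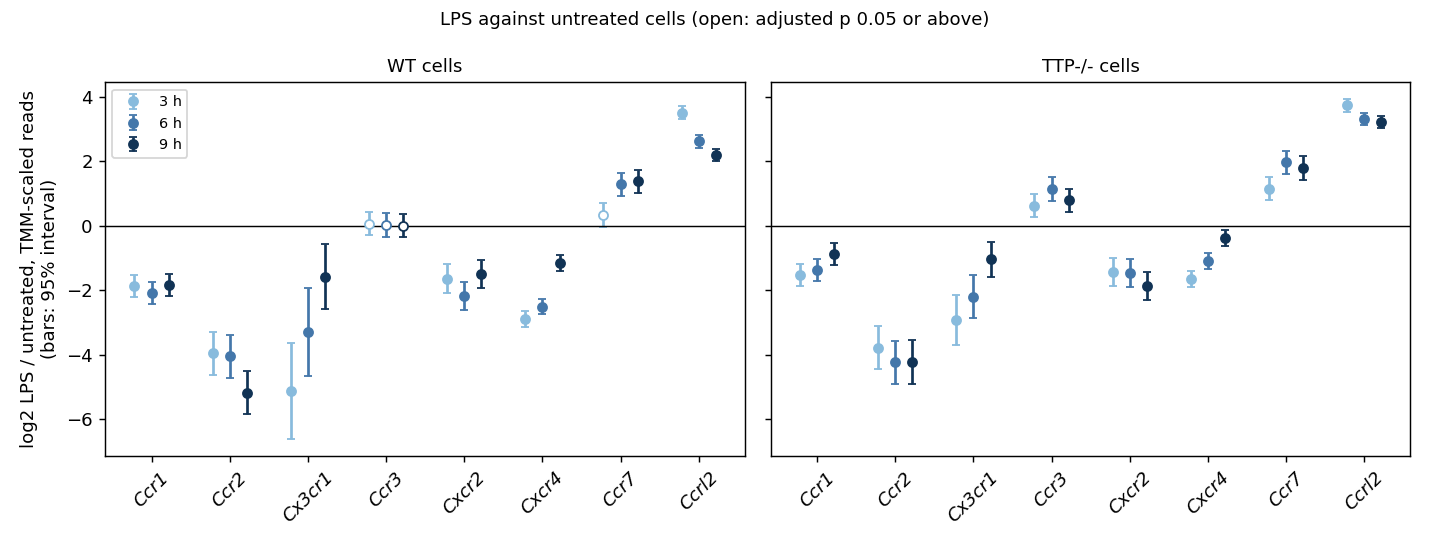
Log2 change with LPS at 3, 6 and 9 h against untreated cells, in WT (left) and TTP-/- cells (right), on TMM-scaled reads with 95% intervals from limma (limma-voom for *Cx3cr1*). Filled points passed an adjusted p of 0.05. On this scale *Ccr3* lies at 0.07, 0.03 and 0.01 in WT cells, while in RPM it lies at -0.35, -0.52 and -0.53. *Ccrl2* and the later *Ccr7* points lie above 0 and *Ccr1*, *Ccr2*, *Cx3cr1*, *Cxcr2* and *Cxcr4* below on either scale.

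The levels of the members were ordered as RPM per kilobase of exon, which allows different genes to be compared. *Ccr7* was first and *Cx3cr1* last in each of the 8 groups. In untreated WT cells *Ccr7* (mean 1451) was followed by *Cxcr4* (89.1), *Ccr1* (39.4), *Ccr2* (11.9), *Ccrl2* (4.29), *Ccr3* (3.62), *Cxcr2* (3.49) and *Cx3cr1* (0.459), and only *Ccr3* and *Cxcr2* were not separated by their libraries. In untreated TTP-/- cells the order was *Ccr7* (953), *Ccr1* (129), *Cxcr4* (57.6), *Ccr2* (28.2), *Cxcr2* (27.2), *Ccr3* (16.2), *Ccrl2* (6.21) and *Cx3cr1* (2.28), with *Ccr2* and *Cxcr2* not separated. *Ccr1* thus stood above *Cxcr4* without TTP and below it with TTP. At 9 h *Ccr7* (2578) led *Cxcr4* (27.6), *Ccrl2* (13.7) and *Ccr1* (7.54) in WT cells, and in TTP-/- cells *Ccr7* (2197) led *Ccr1* (48.2) and *Ccrl2* (40.6), whose libraries overlapped, and *Cxcr4* (30.5).

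*Ccr1*, *Ccr2* and *Ccr3* lie within 151 kb of each other on chromosome 9, yet their patterns over the 24 libraries differed. Pearson's r of log2(RPM + 0.1), given as a description over 24 libraries that share genotype and LPS time, was 0.82 for *Ccr1* with *Ccr2*, 0.76 for *Ccr1* with *Ccr3* and 0.32 for *Ccr2* with *Ccr3*. *Ccr1* and *Cxcr2*, on different chromosomes, had the highest r among the members (0.95). Among 12663 other genes with a mean of at least 1 RPM, *Ccr3* was most like *Alox15* (0.98), a lipoxygenase known from eosinophils, *Mcpt8* (0.98), a basophil protease, and *Rflnb* (0.98). *Cxcr2* was most like *Gmfg* (0.98), *S100a9* (0.98) and *Gmfg-ps* (0.98), a pseudogene that may share reads with *Gmfg*. *Ccrl2* was most like the LPS-induced *Cxcl1* (0.98), *Tagap* (0.98) and *Il23a* (0.97), the latter encoding the p19 chain of IL-23. *Ccr1* was most like *Tnfrsf21* (0.99), a death receptor, *Nceh1* (0.99) and *Cd93* (0.99), *Ccr2* most like *B4galt6* (0.98), *Lpgat1* (0.98) and *Mars2* (0.98), and *Cx3cr1* was like *Tnfaip8l2* (0.96) and *Lpxn* (0.96). *Ccr7* was most like *Gtpbp2*, *Psmf1* and *Gpr157* (0.96, 0.95 and 0.95) and *Cxcr4* most like *Eid2*, *Rnf152* and *Xbp1* (0.96, 0.95 and 0.95), the last a transcription factor of the unfolded protein response.

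Of 21 listed ligands of the 8 receptors, 19 were in the tables and 15 passed the filter. In TTP-/- cells 7, 3, 7 and 12 of the 15 were higher than in WT cells at 0, 3, 6 and 9 h and none was lower, where 13.3%, 10.6%, 9.93% and 16.3% of all genes were called higher. At 3 h, 10 of the 15 were called without WT replicate 1. The share of all genes called higher in that fit was also larger, as given above with the monocyte markers. WT replicate 1 held 1277 FPKM of *Ccl3* against 444 and 277 in the other WT libraries. Without any other single library 0 to 2 of the 15 were called, and the shares of all genes in those fits are not reported here. The median log2 difference of the list was 0.83, 1.06, 0.73 and 1.93, against -0.02 to -0.04 for all genes. *Cxcl2*, a ligand of CXCR2, was higher by 1.76, 2.74 and 4.09 in cells treated for 0, 6 and 9 h, and stood at 2.01 without a call after 3 h. *Cxcl1*, another CXCR2 ligand, stood at 0.68 at 0 h without a call and was higher by 1.06, 1.40 and 1.93 at 3, 6 and 9 h. *Ccl3*, a ligand of CCR1, was higher by 1.70, 2.19 and 3.56 at 0, 6 and 9 h, and *Ccl6* by 1.26, 1.27, 1.84 and 1.83 at all 4 times. The genotype difference was called larger at 9 h than at 0 h for 5 of the 15 ligands, among them *Cxcl2* by 2.33, *Ccl3* by 1.86 and *Cxcl1* by 1.24, where 5.38% of all genes were called. LPS at 3 h raised 9 of the 15 in WT and 8 in TTP-/- cells, where 12.1% and 13.7% of all genes were called higher, and 10 and 11 with TMM scaling (24.1% and 26.2% of all genes). *Cxcl1* rose by 6.25 and 6.64 on the log2 scale, while *Ccl6* fell by 1.01 and 0.99. *Ccl11*, an eotaxin that binds CCR3, was listed at 0 in all libraries of each group except WT cells at 3 h, where 1 library read 0.0372 FPKM.

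Of 17 other chemokine and atypical receptors, 7 passed the filter, and their summed level was 12.8 FPKM at most. In TTP-/- cells 3, 3, 4 and 5 of the 7 were higher and 1, 0, 1 and 1 lower at 0, 3, 6 and 9 h, against 13.3%, 10.6%, 9.93% and 16.3% of all genes higher and 12.1%, 10.7%, 4.98% and 13.9% lower. *Cmklr1*, the signalling receptor for chemerin, was higher by 1.56, 1.13, 1.36 and 2.18, and *Ccr1l1*, a close relative of *Ccr1*, by 1.42, 2.38, 2.86 and 2.54. *Ccr4* was higher by 0.53, 0.61 and 1.02 at 3, 6 and 9 h and was raised by LPS at 9 h by 2.20 in WT and 2.74 in TTP-/- cells. How reads that match both *Ccr1* and *Ccr1l1*, or other related receptors, were counted is not given in the sources used here.

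Of 22 genes of receptor signalling and desensitization, 19 passed the filter, and 4, 4, 4 and 4 were higher and 5, 5, 1 and 4 lower in TTP-/- cells at 0, 3, 6 and 9 h, beside the same shares of all genes. *Rgs18* and *Rgs2*, which end G protein signals, were higher at all 4 times, *Rgs18* by 1.45, 1.72, 2.12 and 1.45 and *Rgs2* by 0.96, 1.07, 1.25 and 0.92. *Pik3cg*, the PI3-kinase catalytic subunit driven by G protein-coupled receptors, was lower by 0.66, 0.70 and 1.01 at 0, 3 and 9 h, and *Pik3r5*, its regulatory subunit, by 0.97, 0.63 and 0.49. The median log2 difference of this list lay between -0.21 and 0.05, close to that of all genes.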

How the data were processed

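Polyadenylated RNA of 24 libraries was sequenced, and per the submitters' notes reads were trimmed with cutadapt, checked with FastQC and aligned with STAR 2.5 to GRCm38 (mm10). The read counter, its strand setting and its handling of multi-mapped reads are not given in the sources used here. The FPKM values were made by the authors, 1 table for each LPS time. The paper defines FPKM per kilobase of exon model. For most genes the values matched reads per kilobase of gene span over library sizes scaled within the 6 libraries of that time. This reading was inferred from the values and is not stated in the sources used here. The same deposited tables hold the authors' own DESeq2 comparison (log2 fold change, score of the Wald test, p-value), and none of it was used. A normalized signal, the authors' mean over each table, was not used either.

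Whole reads were recovered from the FPKM for 100.0% of 23394 genes, for 78.1% over the annotated span and otherwise by a fitted length, to within 0.05 reads. Among the members, *Ccr1*, *Ccr3*, *Ccrl2* and *Cx3cr1* needed a fitted length. Levels at different times were compared as recovered reads per 1000000 library reads (RPM). Genotypes were compared at each time with limma 3.58.1 (R 4.3.3, with trend) on log2(FPKM + 0.1), without a replicate block, and LPS effects and changes of the genotype difference in 1 fit of the 24 libraries. P-values were adjusted over all genes tested (Benjamini-Hochberg, threshold 0.05). *Cx3cr1* fell below the filter of 0.1 FPKM and was tested with limma-voom on reads (mean of at least 10). Each test was tried on simulated data with known changes. Alternatives were pseudocounts of 0.01 and 1, no filter or 0.5 FPKM, rescaling to a common sum per library (TPM), a common median, trimmed means of M values (TMM), no trend, robust variances, voom, 1 fit of 24 libraries, a replicate block, an adjusted p of 0.01 and leaving out each library. The voom fits of *Cx3cr1* with a block or without a library, and the counts of gene lists without a library or with TMM, were chosen after seeing the data.

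The receptors and gene lists were chosen with earlier results of these data known. All 8 receptors are named; for each, the 3 genes most correlated over 24 libraries, and of each other list at most 4 genes called in the most contrasts. Further marker genes were named after their values were seen. Same-numbered WT and TTP-/- libraries deviated together (every r over 0.1) at 6 h only, where r ran from 0.136 to 0.357. This does not show that the numbers pair the samples, since unlike numbers reached a higher r at 0 h (0.505, WT replicate 2 with TTP-/- replicate 3). Whether the numbers mark a shared mouse or culture is not given in the sources used here. No 2 libraries of the same group were duplicates, and libraries of different groups were not compared for this. Some sequence windows and 1 gene named by the correlation rule are not reported here.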

Additional observations from a re-analysis of the deposited data

Results flagged for a closer look

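For 4 of the receptors the genotype difference was not the same before and after LPS, as tested by the interaction of genotype and time. For *Cxcr4* the log2 difference between TTP-/- and WT cells moved up from untreated cells by 1.21 at 3 h, 1.38 at 6 h and 0.77 at 9 h. For *Ccrl2* it moved up by 0.68 at 6 h and 1.02 at 9 h. For *Ccr3* it moved up by 1.05 at 6 h, and for *Ccr1* by 0.94 at 9 h. These 2 calls were lost in 2 and 4 of 6 fits without a single replicate. At 6 h, 3 of 5 eosinophil markers tested were called upward (median 0.85), where 5.07% of all genes were. At 9 h, 2 of 5 macrophage markers were called upward (median 1.325), where 5.38% of all genes were. Of the eosinophil markers 1 was called upward at 9 h (median 0.18), and of the macrophage markers 0 at 6 h (median 0.25). Among 6 mature dendritic cell markers, 2 were called upward at 6 h and 2 at 9 h (median 0.54 and 0.46). Of 5 monocyte markers, 0 were called upward and 1 downward at 9 h (median 0.80). The part of such cells in these changes was not tested. The comparisons share the untreated libraries.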

How the results depend on the processing

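Of the values of single receptors and counts under another setting, 1266 kept their direction and side of the threshold, 45 lost and 24 gained a call, and 30 changed sign. With voom, 7 of 8 members were called between genotypes at 3 h, where 30.3% of all genes were. With limma on FPKM, 4 of 7 were, against 21.3% of all genes. The number whose genotype difference had changed by 3 h was 3 with a pseudocount of 1, 2 with voom, 2 with the replicate block, and 1 to 2 without single replicates. For this change voom called 3.29% of all genes upward and 1.64% downward, and the block 2.30% and 1.78%. The shares with a pseudocount of 1 and without single replicates are not reported here, so those counts are not read as a result about the members. With the replicate block, *Ccrl2* (adjusted p = 0.141) and *Cxcr4* (0.0520) at 0 h and *Ccr7* at 9 h (0.0993) lost their calls and *Ccr7* gained one for its change by 3 h (0.0487). At 6 h, the only time at which all same-numbered libraries deviated together, the block changed no call of a member.

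Signs turned mostly where values lay near 0. *Ccr7* between genotypes was -0.016 at 3 h with a common median, -0.0085 to 0.070 without single libraries, and 0.016 at 6 h as TPM. *Cxcr4* at 9 h was -0.066 with a common median and -0.029 to 0.071 without single libraries. The change of the genotype difference by 3 h was 0.15, 0.082 and 0.19 for *Ccr2* and 0.20, 0.13 and 0.24 for *Cxcr2* with a pseudocount of 0.01, as TPM and with voom, and -0.31 to 0.24 and -0.21 to 0.11 without single replicates. With a pseudocount of 1 it was -0.65 for *Cxcr2* at 6 h and -0.52 for *Ccr2* at 9 h. In WT cells with LPS, *Ccr3* was 0.072, 0.027 and 0.0083 with TMM and 0.073, 0.033 and 0.011 with voom, and *Ccr7* at 3 h 0.33 with both. *Ccr3* in TTP-/- cells at 3 h was -0.045 to 0.41 without single replicates, and the change of *Cx3cr1* by 6 h -0.28 to 1.86. The causes were not tested. With 3 libraries a group, depth limited *Cx3cr1* most, at 0 to 13 reads in WT libraries after LPS.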
